A study of Mus musculus with 22 samples.

Results

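Adipogenic regulators and lipid genes of 3T3-L1 cells were described through 9 genes chosen by symbol: Pparg, Cebpa, Cebpb, Cebpd, Fabp4, Lpl, Plin2, Plin4 and Scd1. Of these, 8 were listed in the RNA-seq tables of 3T3-L1 and Cebpa was in neither, among 11355 genes listed in at least 1 table. For Scd1, reads at 30 of the 612268 poly(A) site positions of the series were also taken, namely those on the minus strand of chromosome 19 between 44468000 and 44483000 (mm9). That window was assigned to Scd1 beforehand, and the deposited site tables name no gene there.

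The series examined PCF11, a protein that acts in cleavage and polyadenylation of RNA 3′ ends and in transcription termination. The series held 22 libraries of mouse cell lines labelled as strain C57BL/6. That strain label was taken as written and was not checked for any line. RNA-seq was made from 3T3-L1, a preadipocyte line, with 1 library labelled untreated and 1 labelled siPcf11. The other 20 libraries were made with 3′READS, which sequences the fragment beside the poly(A) tail and so counts RNA 3′ ends by position, with 2 libraries in each of 10 groups. They came from C2C12 (a myoblast line), NIH3T3 (a fibroblast line) and 4T1 (a mammary carcinoma line). In C2C12 and NIH3T3, libraries labelled siPcf11 stood against libraries labelled untreated. The C2C12 siRNA set had input RNA, called total RNA here, and RNA from cells given 50 µM 4-thiouridine (4sU) for 1 h before harvest, which marks newly made RNA. A separate C2C12 set carried the labels pro and diff, both untreated, read here as a comparison for differentiation. The source label is myoblast for both, and muscle markers were not checked in these libraries. In 4T1, libraries labelled Pcf11-IPAKO stood against untreated ones, and no label says whether that line is 1 clone. No control siRNA is named for any untreated group, so the effects of transfection and of targeting Pcf11 cannot be told apart. No hormone treatment is named for 3T3-L1.

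Fat cell formation is driven by a cascade of transcription factors. C/EBPβ (Cebpb) and C/EBPδ (Cebpd) act early and turn on PPARγ (Pparg) and C/EBPα (Cebpa), which maintain one another and switch on lipid genes. Among these are the fatty acid carrier FABP4, lipoprotein lipase (Lpl), which frees fatty acids from circulating lipoproteins, the perilipins that coat lipid droplets, and stearoyl-CoA desaturase 1 (Scd1), which makes monounsaturated fatty acids.

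The RNA-seq tables held 8573956 counts (control) and 6992460 (siPcf11 label), and each 3′READS library between 1887532 and 4432717 reads. The counts of the target gene did not bear out the 3T3-L1 label. Pcf11 counts were 939 (control) and 840 (siPcf11 label). As CPM, counts scaled to library size by TMM, these are 108.3 and 121.5, so Pcf11 was at 112.2% of the control. All directions in 3T3-L1 below are therefore those of the library labelled siPcf11. Pcf11 was not analysed here in the 3′READS libraries, which carry no gene names.

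The markers placed both 3T3-L1 libraries with undifferentiated preadipocytes or fibroblasts. None of 11 markers of mature adipocytes was listed in either table, the hormones Adipoq, Lep and Retn, the glucose transporter Slc2a4 and the droplet coat Plin1 included. Of 12 markers of preadipocytes and fibroblasts 11 were listed, with 24408.4 CPM in all in the control and 26427.8 CPM in the library labelled siPcf11. Cd34 was not listed. Much of that sum came from Col1a1 (8201 and 7899 CPM) and Fn1 (5505 and 6727 CPM), while Zfp423 had 2.653 and 7.81 CPM. The lipid genes Fabp4, Lpl and Plin4 were listed too, with values given below. Dlk1 (Pref-1), which restrains adipogenesis, stood at 567.1 and 707.5 CPM. Markers of other cell types were few and low: 2 of 5 for macrophages (9.6 and 10.8 CPM in all), 1 of 5 for endothelium, 1 of 5 for muscle and 1 of 4 for epithelium. The endothelial marker was Vwf, with 52 and 100 counts (log2 ratio 1.27, counting interval 0.77 to 1.78), while Pecam1, Cdh5, Kdr and Tek were not listed. Its part in any result was not tested.

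With 1 library per group, nothing in 3T3-L1 has a replicate check. Each ratio is given with an exact 95% interval that covers counting error only, and a gene was called higher or lower at a ratio of at least 1.5-fold with at least 100 counts over both libraries. Among 9143 genes with that many counts, 2.15% were called higher and 3.47% lower, and the median log2 ratio was 0.00. These shares rest mostly on genes with few counts. Of the 2126 genes with at least 1643 counts, the number of Plin4, 7 were called lower. The called genes of the lists below, Plin4 aside, had 100 to 379 counts over both libraries. Of the 8 listed members, all of which had that many counts, 0 were called higher and 1 lower. Their median log2 ratio was 0.09, with 6 above 0 and 2 below. In bulk RNA, fewer cells of a type and less RNA per cell cannot be told apart.

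The transcription factors that start adipogenesis were each at a similar level in both libraries. From here on the control stands first and the library labelled siPcf11 second. Cebpb had 934 and 795 counts (107.7 and 115.0 CPM), a log2 ratio of 0.09 (interval -0.04 to 0.23). Cebpd had 100 and 85 counts (11.53 and 12.29 CPM), a log2 ratio of 0.09 (interval -0.34 to 0.52). Pparg had 201 and 187 counts (23.18 and 27.05 CPM), a log2 ratio of 0.22 (interval -0.07 to 0.52). The 3 intervals held 0, and the wide ones of Cebpd and Pparg show how little these depths resolve. Cebpa was listed in neither table, and the lowest count listed was 5, which is 0.583 CPM in the control and 0.715 CPM in the other library. So Pparg was present while its partner Cebpa was below what the tables list.

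Of the genes that act in fatty acid handling, Fabp4 lay below the control and Lpl close to it. Fabp4, a target of PPARγ, had 845 and 552 counts (97.45 and 79.83 CPM). This is 81.92% of the control and a log2 ratio of -0.29 (interval -0.45 to -0.13), an interval that lies below 0 but also short of 1.5-fold. Across all measured genes, 15.2% had a lower ratio than Fabp4. Lpl had 1079 and 872 counts (124.4 and 126.1 CPM) and a log2 ratio of 0.02 (interval -0.11 to 0.15), which became -0.01 when libraries were scaled by their totals alone.

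The droplet coat genes Plin2 and Plin4 lay on opposite sides of the control. Plin2, the perilipin found in most cell types, had the most counts of any member, 4022 and 3790 counts (463.9 and 548.1 CPM). Its log2 ratio was 0.24 (interval 0.18 to 0.31), or 118.2% of the control. Plin2 was not called, and 1512 of the 9143 measured genes had a higher ratio. Plin4, a perilipin of adipocytes and muscle, had 1158 and 485 counts (133.6 and 70.14 CPM), so it was at 52.52% of the control. Its log2 ratio was -0.93 (interval -1.08 to -0.77), and it was the 1 member called. Of the 9143 measured genes, 55 (0.6%) had a lower ratio than Plin4. Among the 2126 genes with at least as many counts as Plin4, 7 were called lower, Plin4 included, and 0 had a lower ratio than Plin4. That cut was set at the counts of Plin4 itself, so this rank is a description only. Plin3, another coat protein that was no member, stood at 84.01% of the control, with 2751 and 1843 counts. The plot of members by library shows Plin4 apart from the other members.

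**Figure D1:**
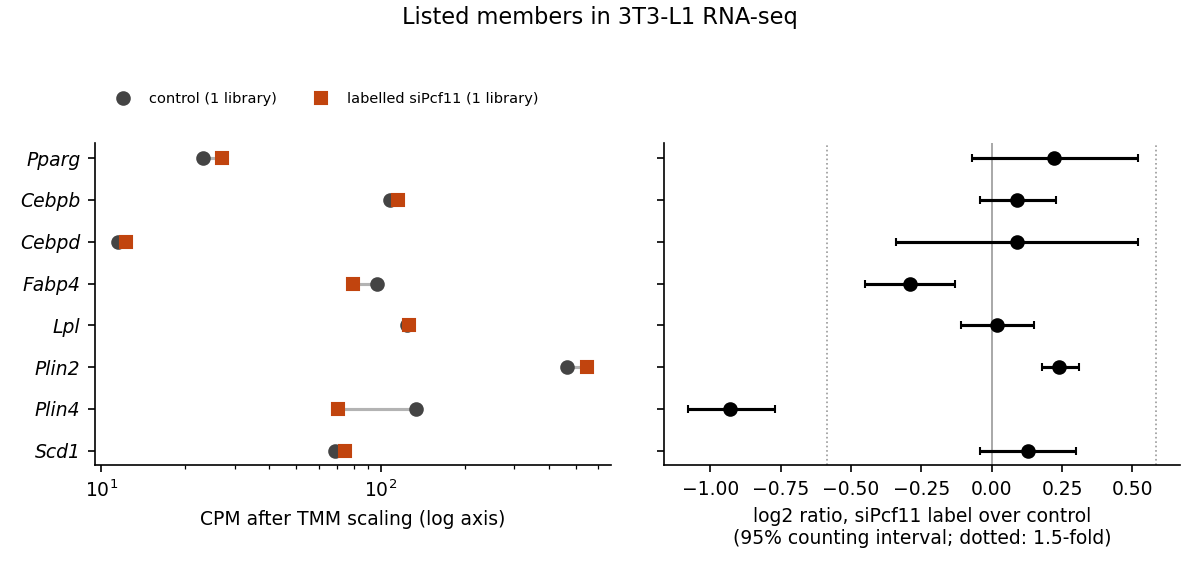
CPM after TMM scaling of the 8 listed members in both 3T3-L1 libraries (left, log axis) and their log2 ratios with 95% counting intervals (right); dotted lines mark 1.5-fold. Plin4, at -0.93, lies past the lower line, and the other 7 members lie between -0.29 and 0.24.

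Promoters of Plin2 and Plin4 are shown because these perilipins lay on opposite sides of the control, though only Plin4 was called. They are printed as RefSeq gives them for GRCm38.p6 (another build than the site tables). Of the 9 members, 5 had an entry (Pparg, Cebpa, Cebpb, Plin2 and Plin4), and Cebpd, Fabp4, Lpl and Scd1 had none. Printed are the 250 bases before the gene's start, 5′ to 3′ on the gene's strand. Plin4 lies at chr17:56109783-56110032 and Plin2 at chr4:86670060-86670309, both on the minus strand. Capitals mark matches to any of 5 motifs searched on both strands: AGGTCA (a nuclear receptor motif), TTGCNNAA (C/EBP), TATAAN (TATA box), GGGCGG (GC box) and CACGTG (E-box).
Plin4: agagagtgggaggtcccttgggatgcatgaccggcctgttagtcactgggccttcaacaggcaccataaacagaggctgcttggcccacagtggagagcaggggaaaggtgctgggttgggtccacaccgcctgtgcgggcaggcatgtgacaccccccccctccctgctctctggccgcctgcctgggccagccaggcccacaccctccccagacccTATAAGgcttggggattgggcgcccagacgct
Plin2: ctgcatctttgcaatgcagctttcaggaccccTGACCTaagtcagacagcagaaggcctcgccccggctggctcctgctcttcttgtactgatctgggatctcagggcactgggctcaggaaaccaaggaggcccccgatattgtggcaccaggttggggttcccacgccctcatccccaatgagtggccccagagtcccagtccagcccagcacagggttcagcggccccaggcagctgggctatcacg
Plin4 held 1 match, TATAAG at position -32 from the gene's start, and Plin2 held 1, AGGTCA on the other strand (TGACCT) at position -218. No matches overlapped in these stretches. Over all 32851 promoter stretches of that length, TATAAN was found in 22.7%, AGGTCA in 14%, TTGCNNAA in 9.56%, GGGCGG in 32.7% and CACGTG in 6.02%. These matches describe letters only. The start used here comes from the annotation and was not measured in these cells.

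Other genes of lipid droplets and their breakdown were also uneven. Of 17 genes of that list, 9 were listed, 7 were measured, 1 was called higher and 1 lower (median 0.09). Lipe, hormone-sensitive lipase, had 109 and 43 counts (12.57 and 6.219 CPM), 49.47% of the control with a log2 ratio of -1.02 (interval -1.56 to -0.49). Bscl2 (seipin), which acts in droplet formation, had 74 and 101 counts, a log2 ratio of 0.78 (interval 0.33 to 1.23). Hsd17b11, a droplet enzyme, had a ratio of 0.58, and Pnpla2, the adipose triglyceride lipase, one of 0.41 (interval 0.04 to 0.78). So the lipases Lipe and Pnpla2 lay on opposite sides of the control. Plin1, Plin5, Cidea, Cidec, Fitm1, G0s2, Mgll and Pnpla3 were not listed.

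Of 26 factors that promote adipogenesis, 24 were listed and 18 measured, with 0 called higher, 0 lower, 15 above 0 and a median log2 ratio of 0.08. At a minimum of 20 counts in place of 100, 2 were called higher, Zfp423 (23 and 54 counts, log2 ratio 1.56, interval 0.83 to 2.33) and Ebf2 (20 and 27 counts, 0.76, interval -0.13 to 1.67). Calls are common at so few counts. Over all genes that minimum gave 509 higher and 717 lower, against 197 and 317 at 100 counts. At most the 11186 genes listed for both libraries were compared there. Among the 18, the farthest were Klf9 (0.35, with 72 and 73 counts), Stat5b (0.28), Klf4 (0.20) and the coactivator Ncoa2 (0.20), and their intervals all held 0. Rxra, the nuclear receptor that pairs with PPARγ, had 433 and 335 counts and a ratio of -0.04. Klf15 and Prdm16 were not listed.

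Of 25 factors that restrain adipogenesis, 21 were listed and 19 measured, with 0 called higher and 2 lower (median -0.13). Above 0 lay 8 and below it 11, and Dlk1, with the most counts, had a log2 ratio of 0.32 (interval 0.26 to 0.38). Klf7, a Krüppel-like repressor of adipogenesis, had 197 and 95 counts, 60.47% of the control (log2 ratio -0.73, interval -1.09 to -0.37). Irf3, a transcription factor of innate immunity, had 187 and 98 counts, 65.72% of the control (log2 ratio -0.61, interval -0.97 to -0.25). Klf2 (-0.43) and the Notch target Hes1 (-0.34) came next, with intervals that held 0. The Wnt ligands Wnt6, Wnt10a and Wnt10b and the factor Irf4 were not listed.

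Of 15 genes of fatty acid and lipoprotein uptake, 13 were listed and 11 measured, with 0 called higher and 2 lower (median 0.04). Slc27a4, a fatty acid transport protein, had 250 and 129 counts, 64.71% of the control (log2 ratio -0.63, interval -0.95 to -0.32). Vldlr, the VLDL receptor, had 66 and 34 counts and a log2 ratio of -0.63 (interval -1.27 to -0.01). By contrast the lipoprotein receptor Lrp1 and the caveolar coat gene Cavin1 each had a ratio of 0.38 on at least 10340 counts in either library. Fabp3 and Gpihbp1, which carries lipoprotein lipase across endothelium, were not listed.

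Of the synthesis genes measured, 0 were called. For fatty acids and triglycerides, 22 of 26 genes were measured, 15 above 0, with a median of 0.08. Lpin3, a phosphatidate phosphatase, had the lowest ratio (-0.58, interval -1.18 to 0.01, 71 and 38 counts), just short of 1.5-fold. With library totals as the only scaling 1 gene of this list was called lower. With a minimum of 20 counts the gene called lower was Dgat2 (17 and 5 counts). Above the control stood Acacb (0.49), Agpat2 (0.43) and Acaca (0.35), enzymes of malonyl-CoA and phosphatidic acid synthesis. Mogat1 and Thrsp were not listed. For cholesterol, all 20 genes were measured, with 11 above 0 and a median of 0.03. Dhcr7 (0.55), Sc5d (-0.50) and Pmvk (-0.39) lay farthest out, in both directions.

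**Figure D2:**
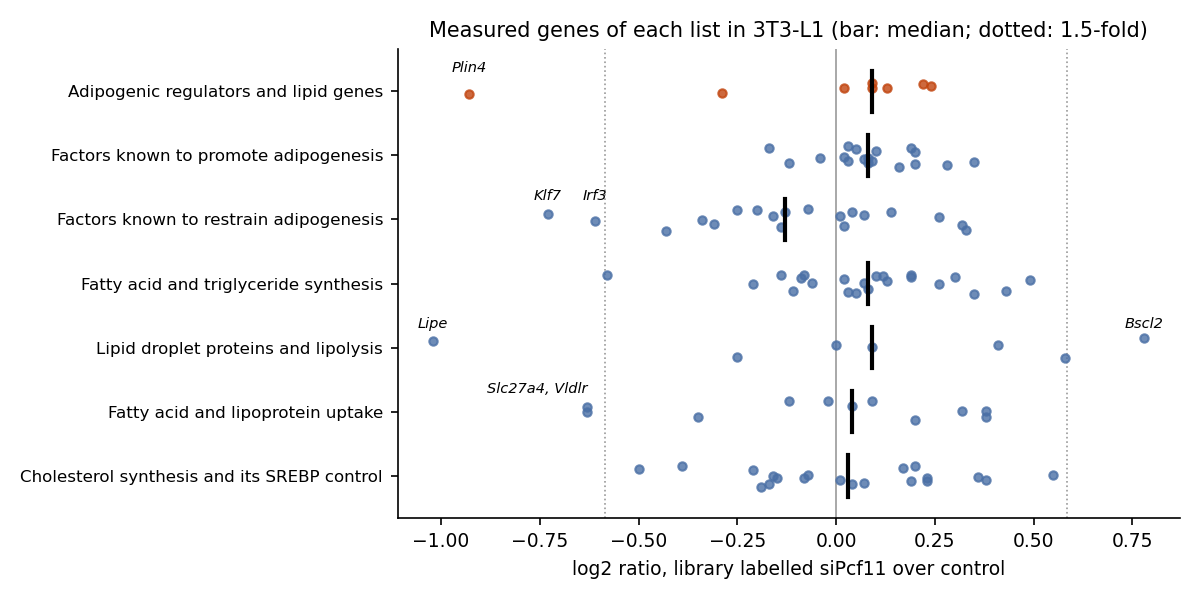
Log2 ratio of each measured gene (library labelled siPcf11 over control) by gene list, with the list median as a bar and dotted lines at 1.5-fold. Named genes lie past a dotted line: Plin4, Klf7, Irf3, Lipe, Slc27a4 and Vldlr on the lower side and Bscl2 on the upper.

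Scd1 itself was close to the control in 3T3-L1. It had 593 and 517 counts (68.39 and 74.77 CPM), a log2 ratio of 0.13 (interval -0.04 to 0.30). Its near copies Scd2 (4080 and 3418 counts), Scd4 (946 and 701) and Scd3 (75 and 43) were listed too, with 105.1%, 92.93% and 71.9% of the control. How reads that match several of them were counted is not given in the sources used here, so the Scd1 counts are uncertain to that extent.

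In the 3′READS libraries, RNA ending in the Scd1 window gave 14994 reads over all 20 libraries, and almost all ended at a distal or a proximal position. On the minus strand the distal end, farthest along the RNA, was at 44468945 in every library. The proximal end was listed at 44472216 in all 12 C2C12 libraries and at 44472220 in all 8 NIH3T3 and 4T1 libraries, 3271 and 3275 nt before it. These 2 listings are 4 nt apart and were treated as the proximal end of their libraries. Other positions held 0 to 3.11% of a library's window reads. No mm9 annotation was used here, so whether these positions lie in 1 exon is not stated.

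The level of Scd1 differed widely between groups, in an order that mixes lines, total and 4sU RNA, and treatments. Scaled to library totals, it was highest in C2C12 labelled diff (533.9 ± 25.4 CPM, SD, n = 2), followed by C2C12 total RNA under siPcf11 (380.0 ± 20.1), C2C12 labelled pro (310.0 ± 34.9) and the total RNA control (267.3 ± 15.9). Next came the NIH3T3 control (258.1 ± 16.7), NIH3T3 under siPcf11 (240.8 ± 6.81), 4sU RNA under siPcf11 (155.5 ± 13.5) and the 4sU control (126.1 ± 21.8). Both 4T1 groups were lowest, at 70.6 ± 9.83 CPM in controls and 63.18 ± 14.4 CPM in Pcf11-IPAKO. The C2C12 total RNA control overlapped with the NIH3T3 control, and the 4T1 groups with each other. Other neighbours did not overlap, which carries little weight with 2 values a group sorted by mean. The NIH3T3 controls (246.3 and 269.9 CPM) and siPcf11 libraries (236 and 245.6 CPM) were barely apart, and their level test did not pass. Over the 20 libraries, the 3 site groups most like Scd1 of 8600 were at 28317023 on chromosome 7 (Pearson's r of log2(CPM + 1) 0.932), 93817731 to 93820791 on chromosome 2 (0.930) and 40751635 to 40753467 on chromosome 4 (0.923), all on the minus strand. The libraries share lines and groups, so these r values are descriptions.

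**Figure D3:**
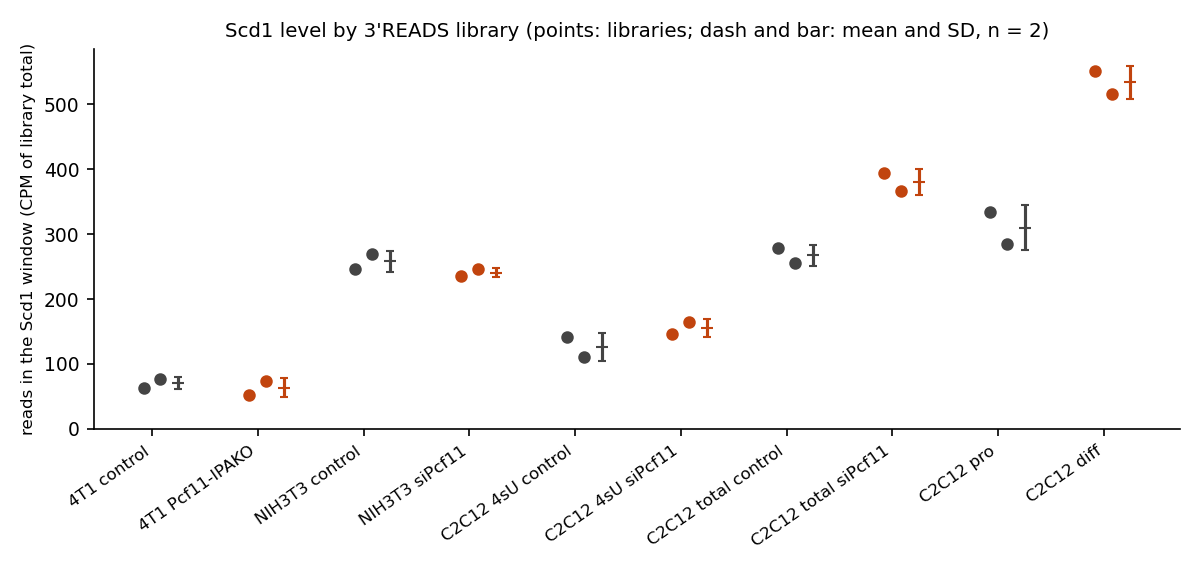
Reads in the Scd1 window as CPM of the library total, for each of the 20 libraries by group (points), with mean and SD beside them (n = 2). C2C12 labelled diff is highest at 533.9 CPM on average and both 4T1 groups are lowest.

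In C2C12, Scd1 rose in the libraries labelled siPcf11. In total RNA, controls had 264.6 and 241.8 CPM after TMM scaling and siPcf11 libraries 419.7 and 388.0 CPM, with no overlap. The log2 change was 0.67 (SE 0.12, interval 0.43 to 0.91), or 1.59-fold (edgeR quasi-likelihood test, Benjamini-Hochberg adjusted p = 6.44e-07). A change in level was common in this comparison, as 51.5% of site groups were called. In 4sU RNA, controls had 127.0 and 99.2 CPM and siPcf11 libraries 161.9 and 182.8 CPM, a log2 change of 0.61 (SE 0.14, interval 0.34 to 0.87, edgeR adjusted p = 4.51e-05), where 53.5% of site groups were called. With library totals as the only scaling, which shifts the median of all site groups by -0.3 in 4sU RNA, the 4sU change was 0.30 (edgeR adjusted p = 0.0485). The labels do not say that the libraries of a group are separate cultures, so these p-values measure only the spread between libraries, which may be technical.

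New and total RNA gave similar values for that change. The difference of the 4sU from the total RNA response was -0.06 on the log2 scale (interval -0.42 to 0.29, edgeR adjusted p = 0.933), and 0.838% of site groups differed. In control cells Scd1 was lower in 4sU RNA than in total RNA, by a log2 difference of -1.16 (SE 0.13, interval -1.42 to -0.91, edgeR adjusted p = 2.19e-14), which 27.8% of site groups passed in either direction. Both values share the control libraries.

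Use of the 2 ends changed with the level. In C2C12 total RNA the proximal end took 3.72% and 4.63% of the reads of both ends in controls (23 proximal with 596 distal reads, and 29 with 597) and 0.541% and 1.12% under siPcf11 (4 with 736, and 10 with 885). The means were 4.17% ± 0.648 and 0.829% ± 0.408 (SD, n = 2). The ratio of distal to proximal reads rose 5.03-fold (log2 change 2.33, SE 0.49, edgeR adjusted p = 3.39e-05), with 19.7% of site pairs called. In CPM after TMM scaling, the distal end went from 238.8 ± 15.8 to 398.8 ± 23.2 and the proximal end from 10.4 ± 0.999 to 3.29 ± 1.46. So the proximal end was lower and the distal end higher, on 14 proximal reads in all under siPcf11.

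In 4sU RNA the proximal end took 6.44% and 6.25% in controls and 1.26% and 0.877% under siPcf11. The shares did not overlap, and the distal to proximal ratio rose 6.20-fold (log2 change 2.63, SE 0.59, edgeR adjusted p = 0.000178), with 16.2% of pairs called. Only 7 proximal reads remained under siPcf11, against 41 in controls. In control cells the ratio in 4sU RNA differed from that in total RNA by -0.65 on the log2 scale (SE 0.42, edgeR adjusted p = 0.447), with 4.84% of pairs called, so a difference was not detectable at this depth.

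**Figure D4:**
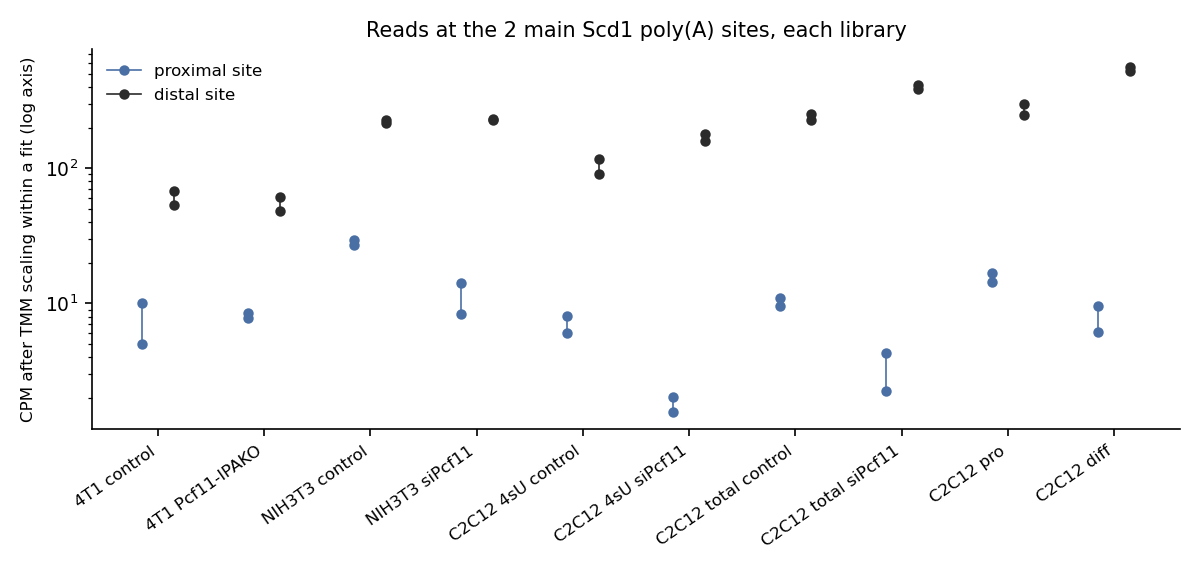
CPM after TMM scaling at the proximal and the distal Scd1 end for each of the 20 libraries (log axis, joined points are the 2 libraries of a group). In C2C12 under siPcf11 and in C2C12 labelled diff the proximal end is lower and the distal end higher than in their controls, while in NIH3T3 the distal end is at about the same level in both groups.

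In NIH3T3 no change of the Scd1 level passed, and the proximal share was lower under siPcf11 without passing the test. Controls had 249.2 and 263.8 CPM and siPcf11 libraries 240.2 and 244.0 CPM, a log2 change of -0.08 (SE 0.20, interval -0.55 to 0.38, edgeR adjusted p = 0.882). Of 13575 site groups tested here, edgeR called 0%. Over all sites the 2 siPcf11 libraries differed far more from each other (chi-square per degree of freedom 12.895) than the 2 controls did (2.669). The 0% therefore does not show that levels were unchanged. At an unadjusted p under 0.05 there were 2266, and DESeq2 called 338. The proximal end took 11.1% and 11.5% in controls and 5.92% and 3.47% under siPcf11, with no overlap. By CPM the proximal end was at 28.3 ± 1.83 in controls and 11.3 ± 4.18 under siPcf11, and the distal end at 222.5 ± 7.77 and 228.6 ± 3.74 (SD, n = 2). The log2 change of the distal to proximal ratio, 1.38 (SE 0.44), did not pass (unadjusted p = 0.00756, edgeR adjusted p = 0.178), and 0.27% of pairs did. Without siPcf11 replicate 1 it was 1.82, but in that fit the lone siPcf11 library is assumed to vary like the controls. The position 44472258, near the proximal end, is left out of these shares. It held 5 and 12 reads in controls and 0 and 16 under siPcf11. With the distal end set against all other reads of the window, the change was 1.38 as well (edgeR adjusted p = 0.14).

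Whether C2C12 and NIH3T3 differ in the response of the Scd1 level was tested after the data were seen. The C2C12 total RNA change exceeded that of NIH3T3 by 0.84 on the log2 scale (SE 0.22, interval 0.36 to 1.32). It did not pass in edgeR (unadjusted p = 0.00268, adjusted p = 0.0615), with 3.51% of site groups called, and passed in DESeq2 (adjusted p = 0.043). With library totals only it was 0.61 and did not pass in edgeR (adjusted p = 0.162). Over libraries left out it ranged from 0.81 to 0.93, but such fits leave a lone library in a group. The difference in use between these lines was not tested.

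In 4T1, Scd1 showed no change that these libraries could resolve. Over all sites the 2 libraries of a group differed strongly (chi-square per degree of freedom 10.335 in controls and 8.836 in Pcf11-IPAKO). Controls had 64.43 and 72.85 CPM and Pcf11-IPAKO libraries 57.88 and 70.64 CPM, with overlapping values and a log2 change of -0.09 (SE 0.29, interval -0.74 to 0.56, edgeR adjusted p = 0.933), where 4.17% of site groups were called. The proximal end took 15.7% and 6.92% in controls and 15.0% and 11.4% in Pcf11-IPAKO. The control libraries alone spanned the other group, and the log2 change of the distal to proximal ratio was -0.30 (SE 0.61, edgeR adjusted p = 0.95), with 0.488% of pairs called.

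In C2C12 libraries labelled diff, Scd1 was higher than in those labelled pro, and its proximal end was used less. Libraries labelled pro had 320.3 and 271.8 CPM and those labelled diff 579.6 and 538.9 CPM, a log2 change of 0.92 (SE 0.10, interval 0.72 to 1.12), or 1.89-fold (edgeR adjusted p = 1.73e-11). In this comparison 62.4% of site groups were called. The proximal end took 4.60% and 6.42% in pro and 1.65% and 1.15% in diff, without overlap, and the distal to proximal ratio rose 4.08-fold (log2 change 2.03, SE 0.28, edgeR adjusted p = 2.31e-08), with 14.6% of pairs called. The distal end went from 272.3 ± 36.7 to 545.6 ± 28.2 CPM and the proximal end from 15.7 ± 1.79 to 7.81 ± 2.38 CPM (SD, n = 2). With 2 libraries against 2, an exact permutation test of such values cannot give a p below 0.333.

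**Figure D5:**
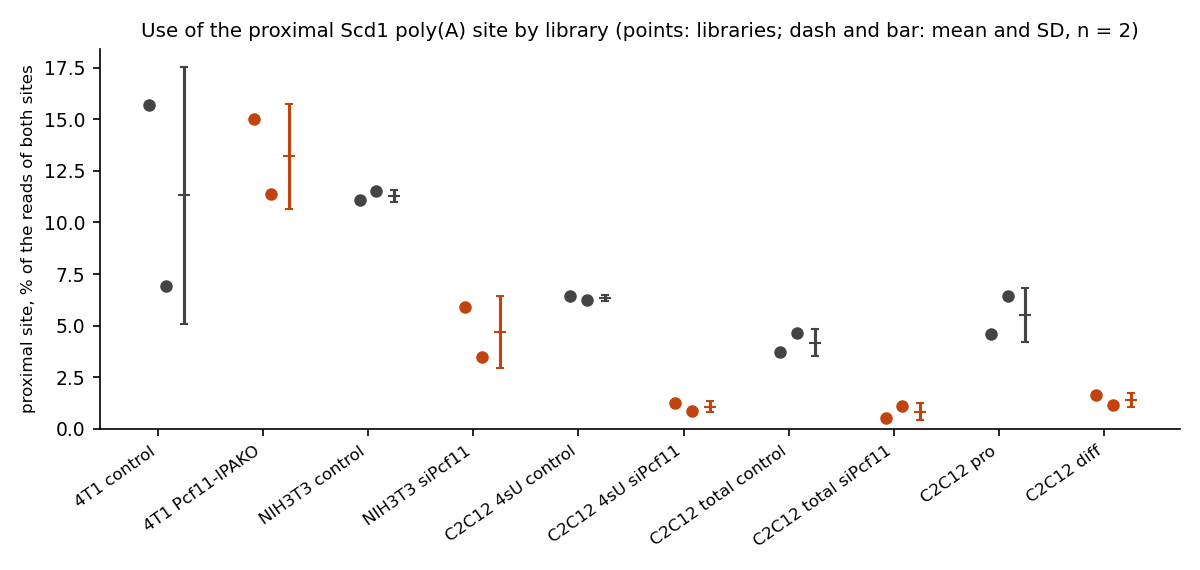
Share of the proximal Scd1 end among the reads of both ends, for each of the 20 libraries by group (points), with mean and SD beside them (n = 2). The share is lower under siPcf11 than in controls in C2C12 total RNA, C2C12 4sU RNA and NIH3T3, lower in diff than in pro, and overlaps between the 4T1 groups.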

How the data were processed

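The deposited tables hold whole-number read counts that the authors left unnormalized, by gene symbol for RNA-seq and by poly(A) position for 3′READS. The submitters' processing notes name Cutadapt, Bowtie2, STAR and the build mm9, with no version or role. No source used here gives the RNA-seq annotation or counting rule. RNA-seq counts were scaled by TMM and compared as ratios with Clopper-Pearson intervals of the conditional binomial. With 1 library a group these intervals cover counting error only. If PCR copies of a molecule were counted as separate reads, they are too narrow even for that. In 3′READS, sites with at least 1 CPM in at least 2 libraries of a fit were chained on a strand over gaps of up to 5 kb into site groups, and the Scd1 window was 1 group.

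Levels were tested by edgeR's quasi-likelihood F-test (edgeR 4.0.16 and limma 3.58.1 under R 4.3.3) with TMM factors and a filterByExpr minimum count of 10. Use of ends was tested by diffSpliceDGE on the 2 most used sites of each group (each at least 5% of its reads, except in Scd1). All 8 libraries of the C2C12 siRNA set entered 1 fit, and each other set had its own. The C2C12 against NIH3T3 difference, added after the data were seen, took a joint fit of 8 libraries. P-values were Benjamini-Hochberg adjusted over all site groups or pairs, with 0.05 as threshold. Level intervals are 95% intervals from the fit. Libraries of a group differed beyond counting noise (chi-square per degree of freedom 1.846 to 12.895). The value was 12.895 in NIH3T3 siPcf11, 10.335 in 4T1 controls, 8.836 in 4T1 Pcf11-IPAKO and at most 2.669 in the other groups. Alternatives were DESeq2 1.42.0, other scalings, no filter, other gaps and minimums, a replicate block and libraries left out. Scripts were tested on simulated data. Tables used Python 3.11.15 with pandas 2.3.3.

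The members and lists were chosen with earlier results of these data known. Named were all members, Pcf11 and, in each list, genes past 1.5-fold and the 4 with the largest absolute ratios at 100 or more counts, except 1 gene not reported here. Rxra, Plin3, Dlk1, Vwf and other cell type markers, the Scd1 copies, Zfp423, Ebf2 and the genes of the closing observations were named besides. Coordinates were not converted between builds.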

Additional observations from a re-analysis of the deposited data

How the results depend on the processing

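Of 157 alternative values for Scd1, 148 kept direction and side of the threshold. Reversed were only small changes that passed no test. The 4sU against total RNA difference of responses was 0.13 without 4sU control replicate 1 and 0.0023 without total RNA control replicate 2 (range -0.31 to 0.13 over libraries left out). The NIH3T3 level change was 0.04 with only the most used end, and ranged from -0.12 to -0.06 over libraries left out. The 4T1 level change was 0.03 without Pcf11-IPAKO replicate 1 (range -0.24 to 0.03), and the 4T1 change in use was 0.33 without control replicate 2 (range -0.99 to 0.33). The cause was not tested. NIH3T3 use ranged from 1.02 to 1.82 over libraries left out and passed only at 1.82, with a lone siPcf11 library. The C2C12 against NIH3T3 difference ranged from 0.81 to 0.93 over libraries left out. Among these fits it passed only at 0.85 without either NIH3T3 siPcf11 library, where that group was left with a lone library. It was 0.61 with library totals only (edgeR adjusted p = 0.162) and 0.82 in DESeq2, where it passed. Over libraries left out, the level change ranged from 0.61 to 0.84 in C2C12 total RNA, 0.44 to 0.80 in 4sU RNA and 0.79 to 1.03 in differentiation, and use from 1.93 to 2.97, 2.39 to 2.90 and 1.77 to 2.31. Over all alternatives the lowest were 0.51, 0.30 and 0.79 for levels and 1.93, 2.24 and 1.77 for use, and all passed.

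Same-numbered libraries share only a number in the labels. The correlation of their replicate differences was -0.04 to 0.2 between C2C12 siRNA groups, 0.15 in NIH3T3, 0.59 in 4T1 and 0.1 in differentiation. With the replicate block the Scd1 level change was 0.67 (edgeR adjusted p = 4.46e-09) in C2C12 total RNA, and the block changed no Scd1 call. It moved the number of called site groups from 434 to 1581 in 4T1 and from 93 to 228 for the difference of responses, and called pairs in 4T1 from 26 to 78 and in NIH3T3 from 13 to 8.

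In 3T3-L1 other scalings, a minimum of 20 counts or a smaller fold left the members at 0 higher and 1 lower. Other lists moved. With a minimum of 20 counts the lists called higher 2 promoting factors, 1 restraining factor and 1 uptake gene, and called lower 1 gene of fatty acid and triglyceride synthesis and 2 of droplets. Over all genes the main setting gave 197 higher and 317 lower. A minimum of 20 counts gave 509 and 717, and a smaller fold gave 969 and 1167, by construction. A fit of only the compared libraries does not apply to the difference of responses, which needs all 8. Proximal Scd1 reads, 3 to 10 a library under siPcf11 in C2C12, limit the precision of use there, and 1 RNA-seq library a group limits 3T3-L1.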

Other observations

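Besides Zfp423 and Ebf2, 4 genes of the pathway lists with 20 to 99 counts over both 3T3-L1 libraries lay at least 1.5-fold from the control. They were picked after their values were seen. Apoe, an apolipoprotein of the uptake list, had 27 counts (control) and 61 counts (siPcf11 label), a log2 ratio of 1.50 (counting interval 0.83 to 2.21). Gata3, a factor that restrains adipogenesis, had 22 and 28 counts (0.67, interval -0.18 to 1.55). Lower stood Dgat2, which makes triglycerides, with 17 and 5 counts (-1.44, interval -3.23 to 0.06), and the droplet gene Fitm2, with 36 and 17 counts (-0.76, interval -1.68 to 0.11). The interval of Apoe lay apart from 0 and the others held it.

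Minor ends in the Scd1 window, also picked afterwards, lay mostly near the main ends. The position 44472258 had 70 reads over 11 libraries, 44472105 had 40 over 12, and 44469002 had 37 over 12. The position 44470058, between the main ends, had 33 reads over 6 libraries, and the position 1 nt away, 44470057, had 1 read in an NIH3T3 control. Of the 30 positions, 12 had 1 read in all.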
